A study of Mus musculus with 12 samples.

Results

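Among 6 RNA-seq libraries of CSE knockout (KO) mouse aortic smooth muscle cells, KO replicates 5 and 6 stood apart from KO replicates 1 to 4. The 2 libraries were selected on their measured values, so the differences between the sets are given as a description and no test is made of them. They are 2 of 6 KO libraries and 2 of 12 libraries in all. Every library came from primary cells treated with angiotensin II, a vasoconstrictor peptide, at 1 uM for 24 h. The KO cells came from mice that lack the enzyme CSE in the whole body, and the 6 reference libraries (WT) came from C57BL/6J mice. CSE, or cystathionine gamma-lyase, is encoded by Cth and makes hydrogen sulfide from cysteine. The labels give no age of the mice, and whether each library is a culture or animal of its own is not stated. They record nothing that sets KO replicates 5 and 6 apart from the others, and no untreated cells were analysed here.

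A cultured smooth muscle cell can contract, make matrix or divide, and these programmes are known to shift against each other. In the contractile state it holds smooth muscle actin, myosin heavy chain and calponin, and in the synthetic state it secretes collagens, proteoglycans and proteases. Entry into division is driven by E2F factors, which switch on DNA replication genes, and later by a complex of B-MYB and FOXM1 that switches on mitosis genes. In bulk RNA, fewer cells of a kind and less RNA per cell cannot be told apart.

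The labelled cell type was set against defining markers, since the cells are called smooth muscle. Smooth muscle myosin heavy chain, Myh11, reached at most 0.03 FPKM (fragments scaled by gene length and by mapped fragments) in any library. Cnn1, calponin, was at most 0.24 FPKM, and Tagln, transgelin, at 0.27 to 0.7 FPKM in KO replicates 1 to 4, then at 0.86 and 1.32 in the other pair. Acta2 was abundant in all 12 libraries. Myh11 and Cnn1 were thus near 0 in both sets, and Tagln was low. Cth, the targeted gene, was at 0, 0, 0, 0.01, 0.02 and 0 FPKM in KO replicates 1 to 6 and at most 0.08 in WT, so it does not check the labels.

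Library totals differed little between the sets. The deposited FPKM summed to 255538 in KO replicate 6, the lowest of all 12, and to between 274174 and 281432 in the other 11 libraries. Mitochondrial genes held 10.9% to 11.5% of the sum in KO replicates 1 to 4, 9.24% in KO replicate 5 and 8.81% in KO replicate 6, against 12.4% to 13.1% in WT. Between 11464 and 11892 genes reached 1 FPKM in a KO library. Depth in reads is unknown. The part of library preparation or RNA quality in the differences below was not tested.

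KO replicates 5 and 6 resembled each other less than KO replicates 1 to 4 resembled one another, but far more than they resembled those 4. The comparison covers genes that reached 1 FPKM in 2 or more of the 6 KO libraries, 12194 of 29462. Across them, Pearson correlations of log2(FPKM + 1) were 0.992 to 0.994 within KO replicates 1 to 4, 0.978 between KO replicates 5 and 6, and 0.946 to 0.958 between the sets. These are correlations across genes, which are not independent replicates. The first principal component of the 6 KO libraries, with 72.2% of their variance, placed KO replicates 5 and 6 at 32.4 and 36.9 and the others between -19.2 and -15.5. The second, with 15.2%, placed KO replicate 5 at -20.1 and KO replicate 6 at 18.5, with the others between -3.11 and 1.85.

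A gene was called parted when both values of KO replicates 5 and 6 lay beyond all 4 values of the other set and the means of log2(FPKM + 1) differed by at least 1. On this scale a difference of 1 is a factor of 2 for abundant genes and understates the factor for low ones. There were 149 genes parted upward (1.22% of those past the filter) and 344 parted downward (2.82%). With scaling by median ratios the split was 219 upward to 290 downward. Without a limit on size, both values lay above the other 4 for 2984 genes (24.5%) and below them for 4025 (33%). The median difference of all 12194 genes was -0.04, with quartiles of -0.31 and 0.22. All of these shares describe the split that was selected and nothing is read from their size. Of the 149 upward genes, 10 had passed the filter only through KO replicates 5 and 6, and 83 of the 344 downward genes had passed only through KO replicates 1 to 4, so those genes could hardly fail to differ. At the edge of the filter, 243 genes had a second-highest KO value less than 0.1 FPKM above the minimum and 251 one at most 0.1 below it.

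**Figure D1:**
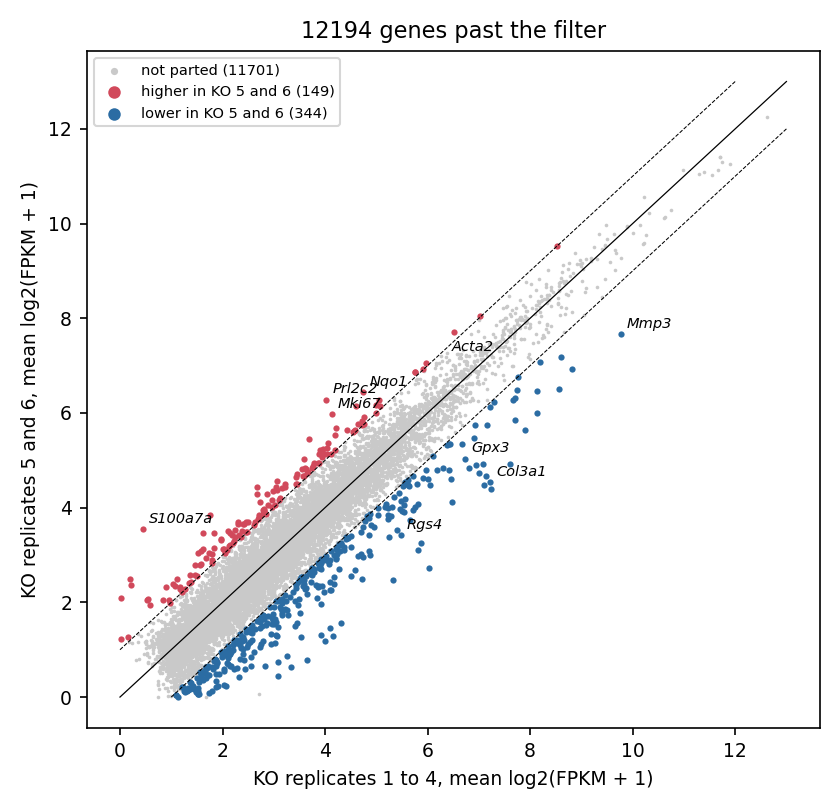
Mean log2(FPKM + 1) of KO replicates 5 and 6 (vertical axis) against that of KO replicates 1 to 4 (horizontal axis), 1 point for each of 12194 genes. The solid line marks equal values and the dashed lines a difference of 1; red points are the 149 genes parted upward and blue points the 344 parted downward.

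5 genes serve as markers of the split. Mki67, a protein of dividing cells, lies on chromosome 7 from 135689784 to 135716361 (minus strand, GRCm38). It was at 14.18, 17.93, 16.04 and 18 FPKM in KO replicates 1 to 4, at 31.46 and 119.95 in KO replicates 5 and 6, and at 20.13 to 27.48 in WT with a median of 24.8. The KO sets thus lay on either side of all 6 WT values, and KO replicate 6 was far above KO replicate 5. The difference of 1.84 for Mki67 was 0.89, under the limit, without KO replicate 6 and 2.79 without KO replicate 5. Acta2, smooth muscle actin, on chromosome 19 from 34241090 to 34255590, was at 80.25, 83.77, 85.09 and 75.28 FPKM and then at 141.13 and 145.52. WT values ran from 111 to 140.4 with a median of 115, again between the KO sets without overlap. The difference of 0.82 for Acta2 fell short of the limit of 1, so it is not among the parted genes.

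The other 3 markers were lower in KO replicates 5 and 6. Col3a1 encodes the type III fibrillar collagen chain (chromosome 1 from 45311538 to 45349706) and was at 140.79, 147.91, 154.74 and 150.68 FPKM in KO replicates 1 to 4, then at 19.57 and 25.31 in the other pair, 6.62-fold lower in the mean. Gpx3, the secreted glutathione peroxidase on chromosome 11 from 54902453 to 54910377, was at 106.64, 107.46, 109.11 and 97.61 FPKM and then at 34.03 and 29.72. Rgs4, a GTPase activator that shortens signalling by G protein-coupled receptors, lies on chromosome 1 from 169741477 to 169747642. Its values were 42.93, 44.06, 42.16 and 44.62 FPKM and then 11.44 and 8.16. WT libraries held at most 0.71 FPKM of Col3a1, 0.66 of Gpx3 and 0.55 of Rgs4, so all 6 KO libraries stood above WT in these 3 genes, the divergent pair by less.

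**Figure D2:**
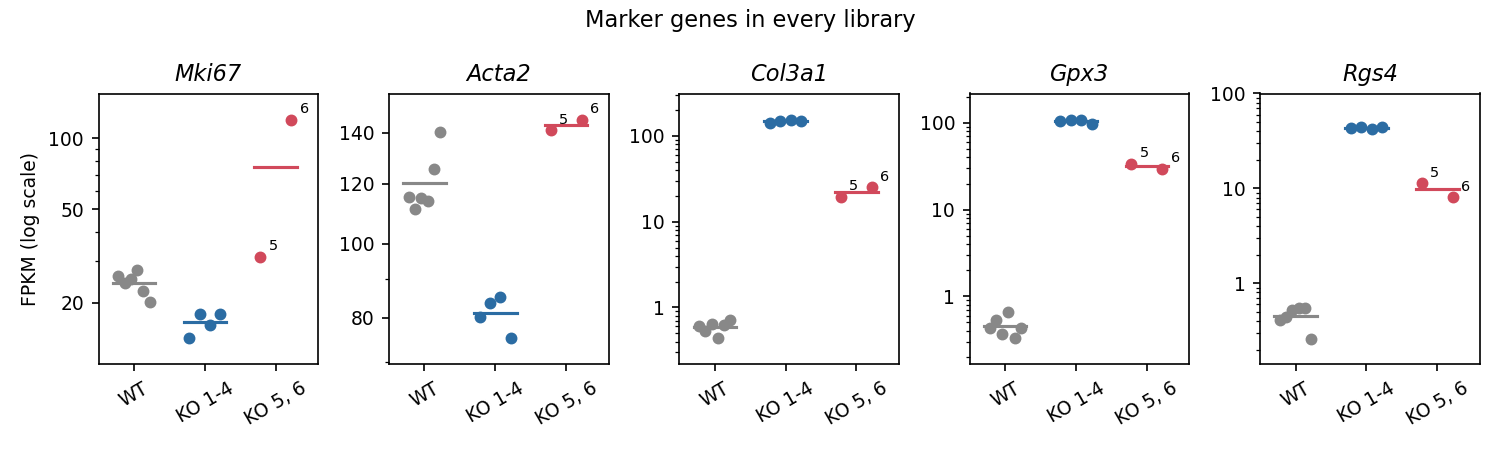
FPKM (vertical axes, log scale, each with its own range) of Mki67, Acta2, Col3a1, Gpx3 and Rgs4 in 6 WT libraries, KO replicates 1 to 4 and KO replicates 5 and 6, with 1 point a library and a bar at the mean of each set. Points labelled 5 and 6 are the divergent pair, which lies beyond KO replicates 1 to 4 in each of the 5 genes.

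Genes of S phase and mitosis lay higher in the pair throughout. All 46 genes of a DNA replication and S phase list lay above KO replicates 1 to 4 in both libraries, 16 of them parted upward and none downward, with a median difference of 0.90. All 55 genes of a mitosis list did the same, 28 parted upward and none downward, with a median of 1.01. Upward parting covered 34.8% and 50.9% of these lists against 1.22% of all genes. The summed level of the S phase list was 419.05 to 473.79 FPKM in KO replicates 1 to 4, 986.1 and 864.08 in KO replicates 5 and 6, and 386.88 to 583.97 in WT. For the mitosis list the sums were 591.67 to 655.96, then 1318.34 and 1437.68, and 630.93 to 858.91 in WT. Both sums in KO replicates 5 and 6 exceeded every WT library.

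Among S phase genes, Rrm2, the small subunit of the reductase that makes deoxynucleotides, was at 25.5, 22.84, 20.75 and 24.39 FPKM in KO replicates 1 to 4, then at 76.06 and 64.06 in the pair, 3-fold higher. Fen1, a nuclease that trims Okazaki fragments, was at 15.56 to 19.06 FPKM and then at 46.82 and 44.04. Clspn, which carries the replication checkpoint signal, was at 2.72 to 3.02 FPKM and then at 7.53 and 11.12. No value of the pair overlapped the other 4 in these genes. Cdc6, a loader of the replicative helicase, was at 2.78 to 4.09 FPKM against 10.37 and 9.69. Mcm5, a subunit of that helicase, was at 14.79 to 16.87 FPKM against 43.15 and 37.95. Pcna, the sliding clamp, stayed under the limit of 1 with a difference of 0.95, at 54.35 to 65.96 FPKM against 143.6 and 96.01.

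Mitosis genes included the kinases, motors and regulators of chromosome segregation. Cenpe, a kinetochore motor, was at 4.38, 5.69, 5.77 and 5.76 FPKM in KO replicates 1 to 4, then at 12.78 and 32.63 in the pair. Mybl2, which encodes B-MYB, was at 2.27 to 2.94 FPKM and then at 9.09 and 10.97, 3.88-fold higher. Foxm1, the forkhead factor of the mitotic programme, was at 9.05 to 10.64 FPKM and then at 22.02 and 28.78. The factors and their known targets were thus higher in the same libraries. Kif18b, a motor that shortens microtubules, was at 6.63 to 7.73 FPKM against 20.29 and 25.06. Cdc20, an activator of the anaphase-promoting complex, was at 27.87 to 35.17 FPKM against 67.52 and 73.48, and Espl1, separase, at 4.2 to 4.47 against 10.54 and 12.73. Cdk1 and Ccnb1, the mitotic kinase and its cyclin, were clear of the other set but not parted, with differences of 0.94 and 0.96.

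Regulators that act before S phase lay on both sides. Of 22 D cyclins, CDK inhibitors and pocket proteins past the filter, 7 lay clear above KO replicates 1 to 4 (31.8%, against 24.5% of all genes) and 9 clear below (40.9%, against 33%), with a median difference of -0.08 that was 0.00 with median-ratio scaling. The parted members were Gas1 and Gadd45a, both downward (9.09%, against 2.82% of all genes), and none was parted upward. Gas1, a membrane protein of arrested cells, was at 44.93 to 48.55 FPKM against 18.04 and 16.44, and Gadd45a, a stress-induced inhibitor of the cycle, at 10.61 to 11.48 against 4.18 and 3.63. Ccnd1, cyclin D1, was at 83.9 to 85.86 FPKM against 67.31 and 72.78, a difference of -0.28. Cdkn1a, the p21 inhibitor, overlapped at 65.56 to 75.5 FPKM against 74.74 and 75.57.

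Promoters were searched for the letters that the known cycling factors read. The mitotic complex and NF-Y bind the cell cycle homology element TTTGAA and the CCAAT box, and E2F binds TTTCGCGC or TTTGGCGC. RefSeq promoters (GRCm38.p6, 250 bases before to 50 after a start) were matched for 117 of the 149 upward genes and searched on both strands, and motifs may overlap one another. The windows below were picked because they hold these motifs. They run 5′ to 3′ along the gene's strand, with CCAAT or TTTGAA and their reverse complements in capitals for the first 3, and the E2F letters with any overlapping copy in capitals for the other 3. Their positions are chr7:135716462-135716577 (minus strand) for Mki67, chr15:102296239-102296281 (plus) for Espl1, chr4:118437344-118437406 (minus) for Cdc20, chr8:75109341-75109382 (plus) for Mcm5, chr4:108579412-108579449 (plus) for Orc1, a subunit of the origin recognition complex, and chr17:56304113-56304150 (plus) for Uhrf1, which maintains DNA methylation at replication.
Mki67: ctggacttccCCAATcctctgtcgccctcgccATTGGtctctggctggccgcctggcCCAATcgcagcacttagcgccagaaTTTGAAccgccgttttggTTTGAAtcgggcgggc
Espl1: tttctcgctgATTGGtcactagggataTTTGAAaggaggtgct
Cdc20: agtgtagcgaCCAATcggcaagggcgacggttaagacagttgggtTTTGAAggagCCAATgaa
Mcm5: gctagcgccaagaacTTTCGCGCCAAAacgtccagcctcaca
Orc1: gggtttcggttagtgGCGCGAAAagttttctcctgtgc
Uhrf1: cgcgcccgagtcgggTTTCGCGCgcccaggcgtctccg

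CCAAT together with TTTGAA stood in 22.6% of the 133 promoters of upward genes, in 5.78% of the 294 promoters of downward genes and in 5.04% of the 11142 promoters of all genes past the filter. In the mitosis list it stood in 63.8% of 47 promoters, in the S phase list in 11.6% of 43, and among upward genes in neither list in 12.1% of 91. An E2F match stood in 8.27% of upward, 0.68% of downward and 1.58% of all these promoters, and in 30.2% of those of the S phase list. The CArG box, the letters read by serum response factor, stood in 3.01% of upward and 1.28% of all promoters, and the sterol element TCACNCCAC in 0.752% and 1.14%. A match is a description of the letters in this window and not evidence of a bound site.

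Outside the cycling lists the largest upward differences fell on genes of several kinds. S100a7a, a small calcium-binding protein of epithelial stress, was at 0.33, 0.44, 0.36 and 0.3 FPKM in KO replicates 1 to 4, then at 10.73 and 10.59 in the pair, 29.8-fold higher. Prl2c2, proliferin, was at 17.5, 14.06, 11.76 and 18.73 FPKM and then at 97.72 and 60.21. Prl2c3, a near-identical copy whose reads may be shared with it, was at 1.7 to 3.39 FPKM and then at 16.98 and 10.54. Both proliferin rows stood above WT in all 6 KO libraries and furthest above it in the pair. Cyp1a1, a target of the aryl hydrocarbon receptor, was listed at 0, 0.03, 0 and 0 FPKM in KO replicates 1 to 4, at 3.75 and 2.78 in the pair and at 0 in every WT library. Fosl1, an AP-1 subunit, was at 10.86 to 12.82 FPKM against 32.57 and 55.92, and Tns4, a tensin of focal adhesions, at 2.02 to 2.16 against 8.96 and 11.36. Fgd3, an exchange factor for Cdc42, was at 5.27 to 5.53 FPKM against 16.21 and 20.97, and Recql4, a DNA helicase, at 1.95 to 2.23 against 5.97 and 10.05. Igkc, an immunoglobulin chain gene, varied without order, from 0 to 8.5 FPKM within WT alone, and its place among the largest differences rests on values of 6.47 and 3.25. S100a7a, Cyp1a1 and Igkc had passed the filter only through KO replicates 5 and 6, where they were high.

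Most genes of the matrix lists were lower in KO replicates 5 and 6, with exceptions in each list. Of 14 fibrillar and fibril-associated collagen chains past the filter, 4 were parted downward (28.6%, against 2.82% of all genes) and none upward. Clear below lay 8 (57.1%, against 33%) and clear above 1 (7.14%, against 24.5%). The median difference was -0.46, or -0.15 without KO replicate 5, -0.79 without KO replicate 6 and -0.24 with no filter on low values. The list's summed level was 1322.7 to 1446.95 FPKM in KO replicates 1 to 4, 686.27 in KO replicate 5 and 1014.27 in KO replicate 6, with WT at 1060.14 to 1133.02. The 4 chains were Col3a1, Col14a1, Col8a1 and Col1a2. Col14a1, which decorates fibril surfaces, was at 6.82, 7.28, 8.49 and 7.44 FPKM and then at 0.24 and 0.48, 20.9-fold lower. It had passed the filter only through KO replicates 1 to 4, where it was high. Col1a2, a chain of type I collagen, was at 201.48, 216.04, 222.16 and 217.67 FPKM and then at 79.27 and 98.94. Its partner Col1a1 differed by -0.64, at 666.86 to 738.65 FPKM against 364.14 and 561.86, and Col5a2 lay on the other side at 70.48 to 78.47 against 78.23 and 100.75, overlapping. The 2 libraries also differed between themselves here, as the list's median was 0.52 higher in KO replicate 6 than in KO replicate 5.

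The basement membrane list, the collagen IV and laminin chains with their partners, had no parted gene among 16, with a median of -0.16 that turned to 0.06 without KO replicate 5. Of the 16 genes 6 lay clear below (37.5%, against 33% of all genes) and 2 clear above (12.5%, against 24.5%). In elastic fibre and matricellular genes 5 of 24 were parted, all downward (20.8%, against 2.82% of all genes), with a median of -0.59, or -0.33 with no filter on low values. Efemp1, fibulin-3, was at 443.6, 447.88, 469.8 and 429.98 FPKM against 115.68 and 125.43, and Ccn3, an inhibitor of smooth muscle growth, at 28.19, 29.18, 31.84 and 25.4 against 7.43 and 6.5. Tgfbi, an adhesion protein, was at 4.3 to 5.44 FPKM against 0.88 and 0.72, Fbln1, fibulin-1, at 6.74 to 7.5 against 1.79 and 2.02, and Tnxb, tenascin-X, at 11.32 to 14.93 against 4.22 and 8.23. Of these 24 genes 2 had passed the filter only through KO replicates 1 to 4, Tgfbi among them. Clear below lay 16 of the 24 (66.7%, against 33% of all genes) and clear above 6 (25%, against 24.5%), the latter without reaching the limit. Thbs1, thrombospondin-1, was at 220.5 to 256.88 FPKM against 399.65 and 468.13, Ccn1 at 41.45 to 46.1 against 69.77 and 81.37, and Ccn2 at 26.56 to 30.06 against 50.64 and 49.72.

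In the list of proteoglycans and collagen-processing enzymes 3 of 24 were parted downward (12.5%, against 2.82% of all genes) and none upward, with a median of -0.46, and 19 lay clear below (79.2%, against 33%). Dcn, decorin, a regulator of fibril width, was at 135.59, 140.98, 151.34 and 131.51 FPKM against 26.69 and 22.08, and WT held 62.25 to 79.26, between the sets. Ogn, osteoglycin, was at 2.63 to 2.84 FPKM against 0.24 and 0.09, and Prelp at 17.08 to 21.25 against 4.08 and 7.41. Of these 24 genes 2 had passed the filter only through KO replicates 1 to 4, Ogn among them. Of 26 matrix proteases and their inhibitors 5 were parted downward (19.2%) and none upward, with a median of -0.68, and 21 lay clear below (80.8%). Mmp3, stromelysin-1, was at 850.18, 884.17, 917.5 and 832.81 FPKM against 228.53 and 178.87, still above the 22.97 to 29.85 of WT. Serping1, the C1 inhibitor, was at 49.37 to 54.19 FPKM against 14.06 and 15.05, and Reck, a membrane inhibitor of metalloproteinases, at 4.72 to 5.92 against 1.03 and 0.86. Proteases and inhibitors alike were thus found among the lower genes.

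Complement, acute-phase and chemokine genes were among those lower in the pair. Of 39 inflammatory and NF-kB genes past the filter, 15 were parted downward and none upward, 38.5% against 2.82% of all genes, with a median of -0.66, or -0.39 with no filter on low values. Of the 39 genes 3 had passed the filter only through KO replicates 1 to 4. C3, the central complement protein, was at 219.37, 247.11, 256.12 and 234.43 FPKM in KO replicates 1 to 4 against 37.64 and 63.93 in the pair, and C4b at 6.29 to 7.57 against 0.9 and 1.53. Cxcl15, a chemokine, was at 15.74 to 17.52 FPKM against 1.64 and 1.27, where WT held 170.88 to 207.46. Lcn2, which binds bacterial iron carriers, was at 53.6 to 62.89 FPKM against 8.3 and 8.67, and Cxcl5 at 6.9 to 8.26 against 1.05 and 0.37. Il33, an alarmin, was at 121.94 to 132.59 FPKM against 30.06 and 21.43.

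Some members of the inflammatory list did not go down. Of its 39 genes 6 lay clear above (15.4%, against 24.5% of all genes) and 27 clear below (69.2%, against 33%). Ptgs2, cyclooxygenase-2, was at 27.99 to 30.35 FPKM against 54.97 and 44.82, Csf1, the macrophage growth factor, at 97.97 to 103.98 against 133.8 and 190.31, and Ccl2 at 375.11 to 419.74 against 564.54 and 450.25. These were clear above the other set with differences under 1. In the interferon response list 6 of 35 were parted downward (17.1%, against 2.82% of all genes) and none upward, and 29 lay clear below (82.9%, against 33%) and none clear above. The median was -0.59, and 5 of the 35 had passed the filter only through KO replicates 1 to 4. Ifit3, an antiviral protein, was at 14.69 to 18.1 FPKM against 3.8 and 3.74, Ifit1 at 11.25 to 14.75 against 3.63 and 4.73, and Gbp2, a guanylate-binding protein, at 35.58 to 39.4 against 8.94 and 10.04. Ifitm2, a membrane restriction factor, was at 375.22 to 402.82 FPKM against 196.6 and 104.17, a difference of -1.43 that was -0.98 without KO replicate 6. The pair remained above the WT range in Ifit3, Ifit1 and Gbp2, while its values of Ifitm2 lay within or below the WT values of 145.67 to 256.09.

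Further large downward differences lay outside these lists. Gda, guanine deaminase, was at 36.48, 39.91, 41.24 and 39.64 FPKM against 5.37 and 3.86, where WT held 40.03 to 46.82. Sprr2b, a cornified envelope protein, was at 140.35 to 161.7 FPKM against 18.41 and 21.66, and Clca3a2, of a family of chloride channel regulators, at 14.09 to 15.67 against 1.02 and 1.58. Dhrs3, a retinal reductase, was at 8.41 to 9.97 FPKM against 0.67 and 0.44, and Cpxm1, of the carboxypeptidase family, at 17.72 to 20.3 against 1.55 and 2.4. In each of these genes the 4 values of one set lay close together. Dhrs3 had passed the filter only through KO replicates 1 to 4, where it was high. Clu, clusterin, a secreted chaperone, was at 184.06 to 212.49 FPKM against 26.19 and 32.47, Steap4, a metalloreductase, at 53.38 to 58.84 against 8.31 and 7.05, and Gas6, the ligand of the Axl receptor, at 15.67 to 16.87 against 1.59 and 1.91. Serpina3n, an acute-phase inhibitor of proteases, was at 128.51 to 152.07 FPKM against 19.29 and 23.47, and Hp, haptoglobin, at 80.82 to 91.86 against 15.6 and 17.4.

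**Figure D3:**
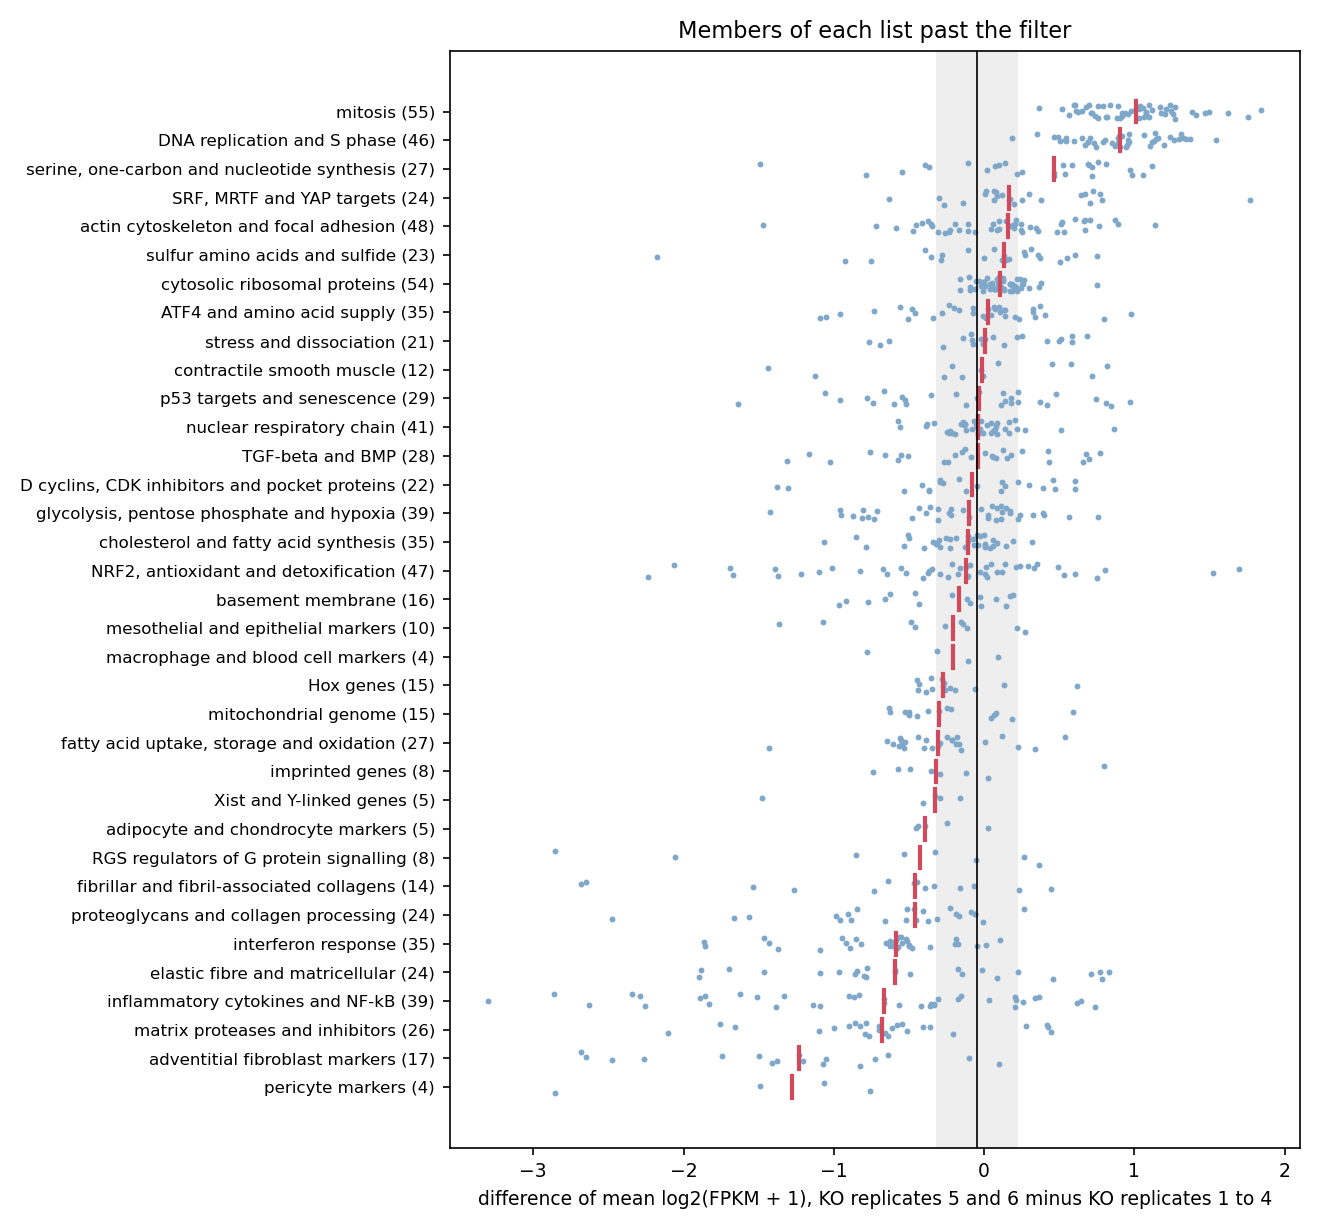
Difference of mean log2(FPKM + 1), KO replicates 5 and 6 minus KO replicates 1 to 4 (horizontal axis), for each member past the filter (blue points, scattered vertically at random within a row) of each list with at least 4 such members, whose number stands in brackets; red bars are list medians. The black line is the median of all 12194 genes, -0.04, and the grey band runs between their quartiles; the mitosis and S phase medians of 1.01 and 0.90 lie to its right and the adventitial fibroblast median of -1.23 to its left.

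Actin genes lay on both sides, with few parted members. Of 48 actin cytoskeleton and focal adhesion genes 19 lay clear above (39.6%, against 24.5% of all genes) and 12 clear below (25%, against 33%). The median was 0.16, or 0.05 without KO replicate 6 and 0.25 with median-ratio scaling. Upward parting covered 2.08% of the list (against 1.22% of all genes) and downward parting 2.08% (against 2.82%). Pdlim1, an adaptor of stress fibres, was parted upward at 5.75 to 6.12 FPKM against 14.37 and 14.25, and Fhl1, a LIM protein of muscle, downward at 34.81 to 37.9 against 13.53 and 11.59. Actb, beta-actin, was at 458.82 to 475.22 FPKM against 699.04 and 637.88, and Zyx, zyxin, at 55.62 to 57.8 against 87.73 and 125.4, both clear above but under the limit. Of 24 targets and factors of SRF, MRTF and YAP 13 lay clear above (54.2%) and 4 clear below (16.7%), with a median of 0.17. Fosl1 was the parted member, upward (4.17%, against 1.22% of all genes). Srf itself, the serum response factor, was at 8.92 to 9.73 FPKM against 14.03 and 18.23.

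The contractile list did not go with Acta2 as a whole. Only 12 of its 30 genes passed the filter, with a median of -0.01 that changed sign with the scaling. Of these 4 lay clear above (33.3%, against 24.5% of all genes) and 4 clear below (33.3%, against 33%). Mustn1 and Jph2 were parted downward (16.7%, against 2.82% of all genes). Mustn1, a small muscle protein, was at 2.23 to 3.18 FPKM against 0.38 and 0.43, and Jph2, which ties calcium stores to the surface membrane, at 3.94 to 4.63 against 1.36 and 1.46. Mustn1 had passed the filter only through KO replicates 1 to 4. Tpm2, a tropomyosin, was at 42.19 to 48.24 FPKM against 57.01 and 76.06, and Smtn, smoothelin, at 8.81 to 9.64 against 12.26 and 20.53. Cald1, caldesmon, overlapped at 87.26 to 93.83 FPKM against 85.11 and 95.47. The higher Acta2 was therefore shared by some actin-binding members and not by others.

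Metabolic genes showed few parted members, and the exceptions were selective. Serine, one-carbon and nucleotide synthesis had 17 of 27 genes clear above (63.0%, against 24.5% of all genes) and 5 clear below (18.5%, against 33%). Of the 27 genes 2 were parted upward (7.41%, against 1.22%) and 1 downward (3.70%, against 2.82%). The median was 0.47, the largest outside the cycling lists among those with at least 4 members past the filter. Phgdh, the entry enzyme of serine synthesis, was parted upward at 55.33, 50.27, 52.3 and 54.03 FPKM against 120.58 and 111.25. Cad, which starts pyrimidine synthesis, was parted upward at 8.97 to 10.89 FPKM against 19.71 and 23.65, a difference of 1.05 that was 0.93 without KO replicate 6. Aldh1l1, a folate dehydrogenase, went the other way at 42.02 to 44.31 FPKM against 12.92 and 16.86. Levels of this list and of the cycling lists were higher in the same libraries.

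Glycolysis, pentose phosphate and hypoxia genes had a median of -0.10 over 39 members (-0.19 without KO replicate 5, -0.01 with median-ratio scaling). Of these 8 lay clear above (20.5%, against 24.5% of all genes) and 19 clear below (48.7%, against 33%), and 1 was parted downward (2.56%, against 2.82%). Hif1a, the oxygen-regulated factor, was the parted member at 112.61, 120.18, 123.64 and 119.62 FPKM against 51.93 and 36.71, below the WT range of 139.14 to 161.72 in all 6 KO libraries. Ldha, lactate dehydrogenase, was nonetheless at 352.74 to 406.5 FPKM against 432.98 and 386.53. Of 35 genes of cholesterol and fatty acid synthesis 1 was parted downward (2.86%, against 2.82% of all genes). It was Insig1, which retains the sterol sensor in the endoplasmic reticulum, at 19.08 to 22.72 FPKM against 10.79 and 7.89. Insig1 differed by -1.07, or by -0.86 without KO replicate 6. That list's median was -0.11, or -0.25 without KO replicate 5 and -0.03 with median-ratio scaling. Fatty acid uptake, storage and oxidation had 21 of 27 genes clear below (77.8%, against 33% of all genes) and 2 clear above (7.41%, against 24.5%), with a median of -0.31. Plin4, a lipid droplet coat protein, was the parted member, downward (3.70%, against 2.82% of all genes), at 9.77 to 10.72 FPKM against 2.17 and 4.53.

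No gene of the nuclear respiratory chain (41, median -0.04), of the mitochondrial genome (15, median -0.30) or of the cytosolic ribosome (54, median 0.11) was parted. The first of these medians changed sign with the scaling, the second was -0.04 with quantile normalization, and the last was -0.02 without KO replicate 5. Of all genes 1.22% were parted upward and 2.82% downward, so lists of this size may hold none. In the mitochondrial genome 10 of 15 genes lay clear below (66.7%, against 33% of all genes) and 1 clear above (6.67%, against 24.5%). Of the 41 nuclear respiratory genes 6 lay clear below (14.6%) and 4 clear above (9.76%). Of the 54 ribosomal genes 2 lay clear below (3.70%) and 13 clear above (24.1%). The largest differences in FPKM fell on mitochondrial RNA. The respiratory gene mt-Co1 was at 6158.48 to 6414.59 FPKM against 5625.06 and 4186.69, mt-Atp8 at 3568.41 to 3943.04 against 2669.73 and 2277.34, and mt-Cytb at 3386.3 to 3537.24 against 2693.06 and 2375.49. The row of mt-Atp6, at 2890.85 to 3112.54 FPKM against 2267.16 and 1915.53, ran in parallel with Gm10925 at 3113.15 to 3348.23 against 2433.43 and 2060.59. Gm10925 is a nuclear near copy of that gene, and reads may be split between them. As shares of their former level these were modest, from 1.28-fold to 1.54-fold lower.

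More antioxidant genes were parted downward than upward. Of 47 NRF2, antioxidant and detoxification genes 2 were parted upward (4.26%, against 1.22% of all genes) and 9 downward (19.1%, against 2.82%). Clear above lay 12, near the share of all genes (25.5%, against 24.5%), and clear below 22 (46.8%, against 33%). The median was -0.12, between -0.28 without KO replicate 5 and -0.05 without KO replicate 6. Nqo1, a quinone reductase, was at 27.96, 23.63, 24.86 and 27.31 FPKM against 107.53 and 68.98, on either side of the WT range of 30.55 to 45.48, and Gsta1, a glutathione transferase, at 0.3 to 0.82 against 3.11 and 3.35. Gsta1 had passed the filter only through KO replicates 5 and 6, where it was high. Of the 47 genes 1 had passed only through KO replicates 1 to 4. Downward went the metallothioneins Mt2, at 354.35 to 407.34 FPKM against 95.33 and 84.01, and Mt1, at 192.75 to 217.32 against 78.73 and 77.87. The other downward members were Gpx3, Mgst1, Gstt1 and the aldehyde dehydrogenases Aldh1a1, Aldh1a2, Aldh1a7 and Aldh3a1. Aldh1a2, which makes retinoic acid, was at 24.41 to 27.1 FPKM against 4.29 and 4.97. Nfe2l2, the NRF2 gene itself, differed by -0.16.

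Genes of sulfur metabolism, the pathway of the deleted enzyme, were little parted. Of 23 past the filter 11 lay clear above (47.8%, against 24.5% of all genes) and 6 clear below (26.1%, against 33%). The median was 0.13, or 0.07 with no filter on low values and 0.21 with median-ratio scaling. Cdo1, which oxidizes cysteine, was the parted member at 5.82, 6.18, 6.62 and 5.74 FPKM against 0.96 and 0.25, and the pair spanned the WT range of 0.32 to 0.65. Downward parting thus covered 4.35% of the list, against 2.82% of all genes. Of the 23 genes 2 had passed the filter only through KO replicates 1 to 4, Cdo1 among them. Mpst, another source of hydrogen sulfide, was at 10.89 to 12 FPKM against 8.64 and 8.4. In the ATF4 and amino acid supply list 2 of 35 were parted, Nupr1 and Vldlr, both downward (5.71%, against 2.82% of all genes), and the median was 0.03. Nupr1, a stress-induced chromatin protein, was at 11.61 to 13.29 FPKM against 5.23 and 5.45, and Vldlr, a lipoprotein receptor, at 4.72 to 5.11 against 1.79 and 1.94.

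Among regulators of receptor signalling, Rgs5 had one of the 15 largest downward differences and Rgs4 a smaller one, -2.06. They were the parted members of the 8 RGS genes past the filter (25%, against 2.82% of all genes). Of the 8 genes 3 had passed only through KO replicates 1 to 4, Rgs5 among them, so the share is a description. The list's median was -0.43, or -0.03 with no filter on low values. Rgs5, abundant in arterial smooth muscle and pericytes, was at 11.56, 11.49, 11.19 and 11.8 FPKM against 0.96 and 0.52, 15.6-fold lower, where WT held 14.28 to 17.18. Rgs10 and Rgs19 lay clear above with differences of 0.37 and 0.27. Of 28 TGF-beta and BMP genes 3 were parted downward, Gdf10, Tgfbr2 and Bmpr2 (10.7%, against 2.82% of all genes). Gdf10 had passed the filter only through KO replicates 1 to 4. Near the shares of all genes, 8 lay clear above (28.6%, against 24.5%) and 9 clear below (32.1%, against 33%). The median of -0.04 changed sign with the scaling. Tgfbr2, the type II receptor of TGF-beta, was at 16.57 to 17.63 FPKM against 6.71 and 7.4, Bmpr2, its BMP counterpart, at 10.44 to 13.55 against 6.15 and 5.12, and Gdf10, a ligand of the family, at 1.79 to 1.92 against 0.13 and 0.17. Bmpr2 differed by -1.02, but by -0.98 without KO replicate 3 and -0.91 without KO replicate 6. Among 29 p53 targets and senescence genes Perp and Trp53inp1 were parted downward (6.90%, against 2.82% of all genes). Perp was at 3.72 to 4.87 FPKM against 0.84 and 0.61, and had passed the filter only through KO replicates 1 to 4. Trp53inp1 was at 17.05 to 18.22 FPKM against 11.21 and 5.61, a difference of -1.06 that was -0.62 without KO replicate 6. The angiotensin and endothelin list had 2 of 18 genes past the filter, neither parted.

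Adventitial fibroblast and pericyte markers were lower in the pair, while the lists of other cell types had few or no parted members. The part of other cell types in the differences above was not tested. Of 17 adventitial fibroblast markers past the filter 12 were parted downward, 70.6% against 2.82% of all genes, with a median of -1.23, or -0.78 with no filter on low values. Their summed level was 1561.92 to 1648.12 FPKM in KO replicates 1 to 4, 751.33 in KO replicate 5, 948.92 in KO replicate 6 and 1041.3 to 1119.1 in WT. The list shares Col3a1, Col14a1, Dcn and Gas1 with the lists above. Of the 17 genes Col14a1 had passed the filter only through KO replicates 1 to 4. Scara5, a ferritin receptor of fibroblasts, was at 9.79 to 11.84 FPKM against 1.17 and 1.67, Pdgfra at 11.3 to 13.43 against 5.09 and 6.03, and Medag at 12.88 to 13.87 against 3.11 and 3.44. Gsn, gelsolin, and Cd34 differed by -0.10 and 0.10.

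Of 12 pericyte markers 4 passed the filter, 2 of them, Rgs5 and Ndufa4l2, only through KO replicates 1 to 4, where they were high. The 3 parted downward are therefore given as a description, beside 2.82% of all genes. The median over the 4 was -1.28, and -0.27 over the list with no filter. The list summed to 20.27 to 22.16 FPKM against 3.47 and 4.32. Rgs5 was its most abundant member in KO replicates 1 to 4. Kcnj8, a potassium channel, was at 2.47 to 3.3 FPKM against 0.74 and 1.05, a difference of -1.07 that was -0.95 without KO replicate 5. Ndufa4l2, a hypoxia-induced mitochondrial protein, was at 1.39 to 2.79 FPKM against 0 and 0.08. Of 10 mesothelial and epithelial markers 2 were parted downward (20%, against 2.82% of all genes). Msln, mesothelin, was at 4.73 to 4.84 FPKM against 1.13 and 1.38, and Gpm6a at 2.01 to 2.68 against 0.87 and 0.32. Gpm6a differed by -1.07, or -0.82 without KO replicate 6, and had passed the filter only through KO replicates 1 to 4. The sums of this list overlapped at 175.62 to 183.82 FPKM against 174.43 and 186.67. Of 17 endothelial markers 1 passed the filter and the sum was at most 3.65 FPKM in any KO library. Macrophage and blood cell markers had 4 members past the filter, none parted, with sums of 56.28 to 59.25 FPKM against 46.83 and 42.1. Tnnt2, cardiac troponin T, was parted upward at 0.06 to 0.15 FPKM against 1.34 and 1.49, and had passed the filter only through KO replicates 5 and 6. No adipocyte or chondrocyte marker, Hox gene, imprinted gene or stress gene past the filter was parted (5, 15, 8 and 21 genes). With 1.22% of all genes parted upward and 2.82% downward, lists of this size may hold none.

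Sex-linked RNA differed too. Xist, the RNA that silences an X chromosome in female cells, was at 2.31, 3.37, 3.16 and 3.53 FPKM in KO replicates 1 to 4, at 0.31 and 0.63 in KO replicates 5 and 6, and at 0.01 to 0.04 in WT. It had passed the filter only through KO replicates 1 to 4. Ddx3y, Eif2s3y, Kdm5d and Uty, which are Y-linked, were present in all KO libraries, below every WT value. Ddx3y was at 5.52 to 6.78 FPKM against 5.69 and 3.49 (WT 9.87 to 11.81), and Eif2s3y at 8.15 to 8.77 against 8.6 and 5.21 (WT 9.71 to 12.87). Kdm5d was at 1.16 to 1.38 FPKM against 0.98 and 1.11 (WT 2.86 to 3.05), and Uty at 1.44 to 1.63 against 1.24 and 0.8 (WT 2.71 to 3.4). Xist and Y-linked RNA were thus found together in each KO library, with 6.58-fold less Xist in the divergent pair. Whether this goes with the other differences was not tested.

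Against WT as a reference level, the parted genes lay in several positions. Of the 149 upward genes 69 had KO replicates 1 to 4 overlapping or touching the WT range and the pair above it (46.3%, against 8.85% of all genes). Both sets were above WT in 39 (26.2%, against 25.4%). KO replicates 1 to 4 were below WT and the pair above it in 28 (18.8%, against 1.28%). Of the 344 downward genes 109 had both sets above WT (31.7%, against 25.4%) and 77 both below (22.4%, against 20.1%). In 66 the other 4 were above WT with the pair below it (19.2%, against 2.26%). Parted genes were called for a gap between the sets, so a place on either side of WT partly follows from the call. The pair's mean was nearer to the WT mean in 14 upward genes (9.40%) and in 197 downward genes (57.3%), beside 42.0% of all genes past the filter. Among all genes 275 had KO replicates 1 to 4 above and the pair below WT, and 156 the reverse. These became 654 and 366 without KO replicate 5, and 427 and 331 without KO replicate 6.

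Downward genes with the sets on either side of WT included Steap4, Clu, Gas6, Dcn and Hp. Clu, for example, was at 75.54 to 103.84 FPKM in WT, and Steap4 at 23.54 to 29.24. Upward ones included Mki67, Cenpe, Nqo1, Epop, Pold2 and Ccnf. Epop, which binds the elongin complex at chromatin, was at 1.62 to 2.19 FPKM against 7.38 and 7.03 with WT at 5.06 to 6.89, and Pold2, a subunit of DNA polymerase delta, at 10.06 to 11.84 against 30.04 and 33.25 with WT at 11.96 to 18.39. Ccnf, cyclin F, was at 3.21 to 3.56 FPKM against 10.11 and 10.47 with WT at 4.39 to 6.42. By list, the mitosis level minus the WT mean was -0.27 to -0.16 in KO replicates 1 to 4, against 0.79 and 0.80 in the pair, in units of log2(FPKM + 1). The inflammatory level on that scale was 0.71 to 0.78 in KO replicates 1 to 4, against -0.09 and -0.11 in the pair.

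**Figure D4:**
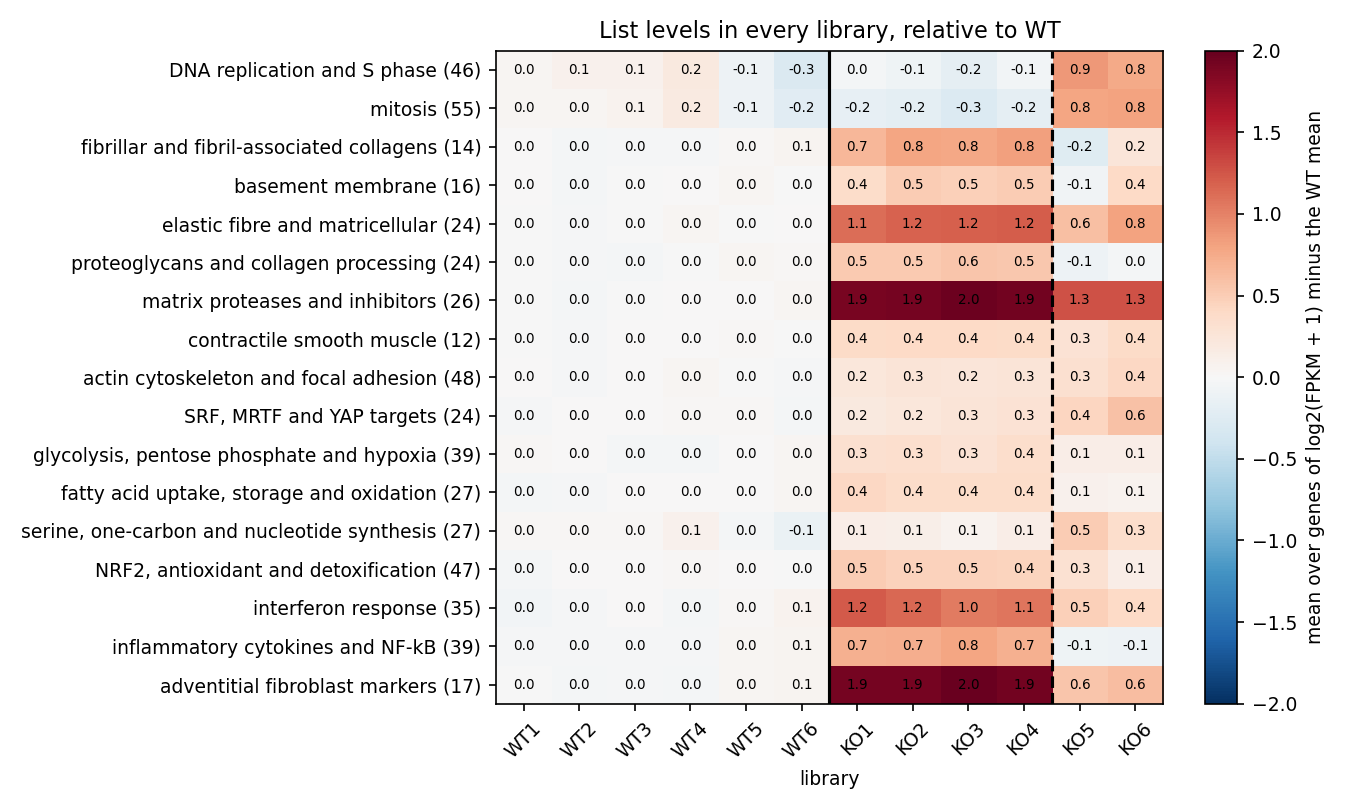
Mean over the genes of a list (rows, number of genes past the filter in brackets) of log2(FPKM + 1) minus the WT mean, in each of 12 libraries (columns); numbers in the cells give the value, red is above and blue below WT, and colours stop at 2. The dashed line parts KO replicates 5 and 6, where the mitosis row reads 0.8 and 0.8 against -0.2 to -0.3 in KO replicates 1 to 4.

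The pair also differed within itself, in 113 genes by at least 1 on the log2(FPKM + 1) scale (0.927% of those past the filter), with 1 library on each side and so no measure of error. Of these 53 were higher and 60 lower in KO replicate 6, and 7 were also parted from KO replicates 1 to 4. In the 149 upward genes the median difference from KO replicates 1 to 4 was 1.17 in KO replicate 5 and 1.21 in KO replicate 6, and in the 344 downward genes -1.27 and -1.31. Each of the 2 libraries alone differed by at least 1 in 84 of the 149 upward and 252 of the 344 downward genes. Since a parted gene must have both libraries beyond the other set, these values describe the call and nothing is read from their likeness.

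Single genes show how the 2 libraries parted from each other. Rrbp1, a ribosome-binding protein of the endoplasmic reticulum, was at 69.88 to 71.87 FPKM in KO replicates 1 to 4, at 51.76 in KO replicate 5 and at 201.07 in KO replicate 6. Golgb1, a Golgi tether, was at 10.12 to 12.7 FPKM, then 7.71 and 25.64, Dst, a cytoskeletal linker, at 8.81 to 13.64, then 12.59 and 33, and Syne2, a linker of nucleus and cytoskeleton, at 5.83 to 9.3, then 6.9 and 18.39. Bod1l, a protector of replication forks, was at 5.6 to 6.99 FPKM, then 5.98 and 20.13, and Ahnak2 at 49.52 to 73.86, then 20.42 and 55.27. In these 6 genes KO replicate 6 stood above KO replicate 5, and in all but Ahnak2 above the other 4 as well. Lower in KO replicate 6 were Zfp703, a transcriptional repressor, at 3.04 to 3.34 FPKM, then 4.61 and 0.47, and Ndufb6, a subunit of complex I, at 40.46 to 46.59, then 64.51 and 28.05. Immp1l, a mitochondrial peptidase, was at 9.06 to 12.17 FPKM, then 13.94 and 5.66. The spliceosome gene Ppih was parted upward in spite of its spread, at 0.96 to 1.78 FPKM, then 6.62 and 2.3, and by 0.56 only without KO replicate 5.

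Several of the genes that differed inside the pair varied as much among the other libraries. Gapdh ran from 18.11 to 93.44 FPKM in WT and was at 19.94, 49.32, 19.62, 90.71, 22.69 and 101.31 in KO replicates 1 to 6. Hnrnpa3, Rps27rt and Sumo2, which have near-identical copies, did likewise, Sumo2 with 29.45 to 72.62 FPKM in KO replicates 1 to 4 and then 73.8 and 28.32.

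Transcript length went with the difference inside the pair. The longest annotated transcript had a median of 3863 bases in the 53 genes higher in KO replicate 6 and 606.5 in the 60 lower ones, against 3092.5 over all genes past the filter. In 5 equal groups of the coding genes from short to long, the median difference of KO replicate 6 from KO replicate 5 was -0.15, -0.07, -0.04, 0.00 and 0.10. KO replicate 5 against KO replicates 1 to 4 went from 0.07 in the shortest group to -0.13 in the longest, and KO replicate 6 from -0.11 to -0.05. KO replicate 6 minus KO replicate 5 had a median of -0.40 in the short nuclear respiratory genes and 0.48 in the long basement membrane genes.

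Mki67 belongs to this group, with a longest transcript of 10061 bases. Of 55 mitosis genes Mki67, Cenpe and Cenpf differed by at least 1 inside the pair, all higher in KO replicate 6. Those in the longest of the 5 groups, with 5250 bases or more, were 7, with a median difference of 0.45 between KO replicate 6 and KO replicate 5, while the 48 shorter ones had a median of -0.04. Against KO replicates 1 to 4, all 48 shorter ones lay clear above, with a median difference of 0.95 and 22 parted upward, and all 7 longer ones did, with 1.38 and 6. The part of RNA quality, fragment size or library preparation in the trend with length was not tested.

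**Figure D5:**
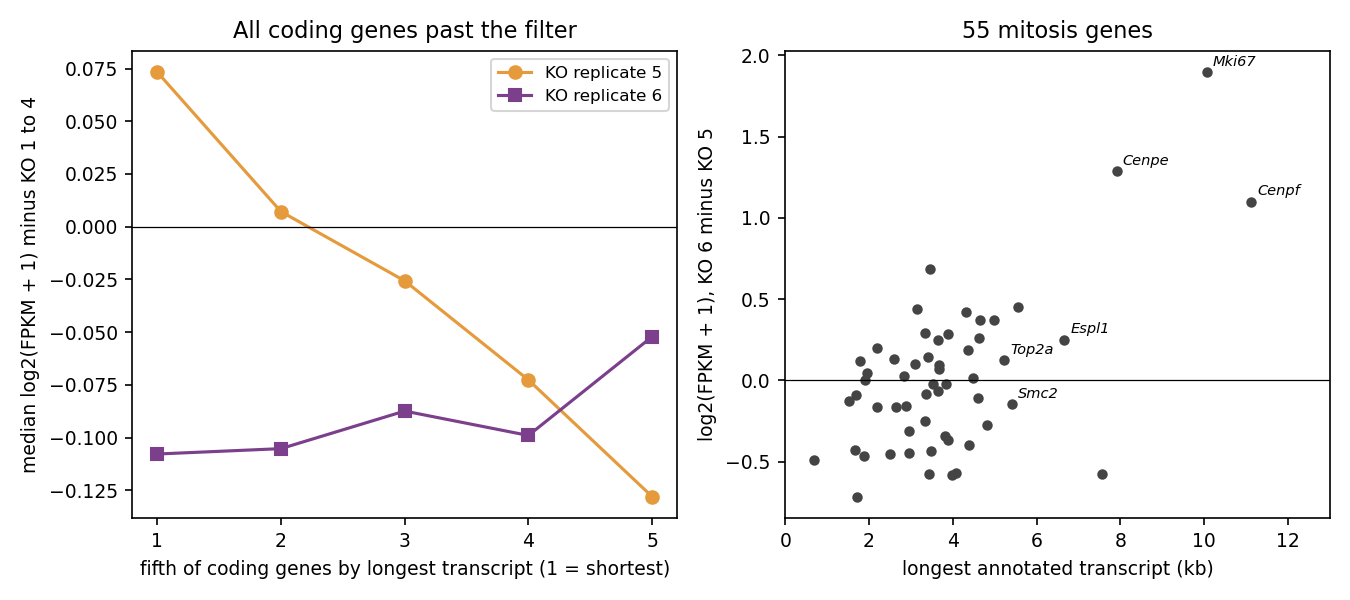
Left, median log2(FPKM + 1) of KO replicate 5 (orange circles) and KO replicate 6 (purple squares) minus the mean of KO replicates 1 to 4, in 5 equal groups of coding genes ordered by longest transcript. Right, KO replicate 6 minus KO replicate 5 on the same scale against longest transcript in kilobases for 55 mitosis genes, 1 point a gene; Mki67, Cenpe and Cenpf lie above 1.

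Biotype, chromosome and length were not used to call a gene parted. Protein coding genes were 91.9% of upward and 93.6% of downward genes against 87.6% of all genes past the filter, and 54.9% of the genes that differed inside the pair. Genes on the X chromosome were 2.01% of upward, 3.20% of downward and 3.37% of all genes. Parted genes lay on all autosomes. Downward genes ran from 1.10% of those past the filter on chromosome 4 to 6.07% on chromosome 15, and upward genes from 0.26% on chromosome 5 to 2.58% on chromosome 19. The longest transcript had a median of 2835 bases in upward and 2760.5 in downward genes.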

How the data were processed

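RNA was measured in 12 libraries, 6 of each genotype, grouped by the genotype in their labels. The authors deposited FPKM, scaled by gene length and library size; StringTie 1.3.4d, HISAT2 2.0.4, cutadapt 1.9, edgeR, DESeq2 and the build mm9 are named in the submitters' processing notes without roles. Gene positions are those of GENCODE M21 on GRCm38, to which 29384 of 29462 IDs matched; 56 symbols stand on more than 1 row, of which the highest was used. FPKM are relative within a library and no counts were used, so precision from depth is unknown.

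The split, the members and the lists were chosen with earlier results of these data known, and no p-value was computed. Genes that reached 1 FPKM in 2 or more KO libraries were compared as log2(FPKM + 1), with pandas 2.3.3 and numpy 2.4.6. The call was checked on simulated data with changes beyond the limit and a spread no larger than that of KO replicates 1 to 4. That check does not cover changes near the limit or the spread of KO replicates 5 and 6. Named genes are the 5 markers, Cth, the 15 largest upward and 15 largest downward differences (mean of 2 FPKM or more in either set; no predicted genes or clones), the 5 largest differences in FPKM, up to 4 parted members of each list, the 8 largest differences each way inside the pair, the 6 each way on either side of WT, Xist and Y-linked genes. Other genes, unparted list members among them, were chosen after their values were seen, and a few genes under these rules are not reported here. Alternatives covered pseudocount, filter, scaling, size of difference, overlap, biotype and each library left out; the removal of a length trend and the scaling of the WT position were added after seeing the data.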

Additional observations from a re-analysis of the deposited data

Results flagged for a closer look

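Of 195 groups of 6 libraries examined, 14 held a highest or lowest value set apart from the other 5, relative to the group's range, by more than Dixon's 95% critical value. Chance gives such a value in about 1 of 20 groups, but many of these genes were named for large differences between or inside the KO sets, so that rate is no reference for them. No explanation was weighed.

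Of these, 9 concern KO replicate 6. In that library the highest of the 6 KO values stood apart for Mki67 (119.95 FPKM), Cenpe (32.63), Rrbp1 (201.07), Golgb1 (25.64), Bod1l (20.13), Dst (33) and Syne2 (18.39), and the lowest for Eif2s3y (5.21) and mt-Co1 (4186.69). All 7 of the high genes have a longest transcript of at least 5177 bases. Ppih stood apart in KO replicate 5 at 6.62 FPKM and in WT replicate 2 at 2.87.

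The other 3 lay in WT, namely Fbln1 at 2.35 and Sprr2b at 3.45 FPKM in WT replicate 6, both high, and Msln at 5.61 in WT replicate 1, low.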

How the results depend on the processing

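No paired analysis was possible because the comparison lies within KO, where the sets share no replicate numbers and no test was made. The counts of upward, downward and within-pair genes, 149, 344 and 113, were 295, 676 and 313 with a pseudocount of 0.1, and 323, 729 and 362 with 0.01. A factor of 1.5 in place of 2 gave 790, 1181 and 1006, and a factor of 4 gave 6, 31 and 6; both follow from the limit itself. Within-pair genes numbered 69 with a minimum of 5 FPKM and 62 among coding genes. Other scalings gave 172 to 219 upward and 290 to 311 downward genes. Of the scalings, median ratios moved the split furthest, to 43.0% upward from 30.2%, while the factor of 4 moved it to 16.2%. Under median ratios the median of all genes moved from -0.04 to 0.03. Leaving out 1 of the 6 KO libraries gave 146 to 209 upward, 334 to 430 downward and, for KO replicates 1 to 4, 109 to 112 within-pair genes. Removing the length trend among autosomal genes, an alternative chosen after seeing the data, gave 182, 305 and 83. The 87 parted genes named kept their sign in all 1044 values under alternatives. Their call, without overlap and with a difference of at least 1, left almost no room for another sign, so nothing is read from this. With no filter on low values several list medians moved by over 1.5 times. List medians near 0 did not keep their sign: D cyclins and inhibitors, contractile, TGF-beta, p53, nuclear respiratory, ATF4 and stress lists changed sign under at least 1 setting, and basement membrane and ribosomal lists (0.06 and -0.02) without KO replicate 5. The 275 and 156 genes on either side of WT became 654 and 366 without KO replicate 5, 427 and 331 without KO replicate 6, and 222 to 239 and 190 to 213 under other scalings, also chosen after seeing the data. With 2 libraries on one side, unknown depth and no record of how they were made, the spread of the divergent pair is poorly known.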
